A study of Homo sapiens with 6 samples.

Results

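The cluster of microRNAs (miRs) in an intron of CLCN5 was followed through small RNA libraries of HEK293T cells after depletion of ribosomal protein L24. Its 10 members, hsa-miR-532-5p, hsa-miR-532-3p, hsa-miR-188-5p, hsa-miR-500a-5p, hsa-miR-500a-3p, hsa-miR-362-5p, hsa-miR-362-3p, hsa-miR-501-3p, hsa-miR-660-5p and hsa-miR-502-3p, were taken by exact name from a table of 2588 mature miR names. HEK293T is a human embryonic kidney line that carries the SV40 large T antigen. Cells received siPOOLs, mixtures of many siRNAs, at 50 nM, either directed at RPL24 (RPL24 KD, 3 libraries) or without a target (NC, 3 libraries), and were collected at 72 h, which the time label writes as day 72. A miR-608 plasmid at 48 h, 24 h before collection, is described for both groups. The paper calls the sequenced knockdown a separate experiment and reports that no miR-608 was found in its libraries. It does not state outright whether the sequenced cells received the plasmid. Nothing states that libraries of a group came from separate cultures, so p-values measure the spread between these libraries, which may be technical.

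A polycistronic miR cluster is usually copied as 1 long primary transcript. In the nucleus the microprocessor (Drosha with DGCR8, aided by the helicase DDX5) cuts each hairpin out of it, and in the cytoplasm Dicer removes the loop, which leaves a 5p and a 3p strand of which usually one is kept in Argonaute. Bases 2 to 8 of the kept strand, the seed, pair with target mRNAs. The host gene CLCN5 encodes an endosomal chloride and proton exchanger of the kidney proximal tubule.

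In GENCODE 29 on GRCh38 the cluster holds 8 hairpin genes on the plus strand of the X chromosome, at chrX:50003148-50014683, a span of 11536 bases. From 5′ to 3′ they are MIR532, MIR188, MIR500A, MIR362, MIR501, MIR500B, MIR660 and MIR502. CLCN5 itself lies on the same strand at chrX:49922615-50099235. All 8 hairpins are intronic in 3 of its 9 annotated transcripts and exonic in 0, and the other 6 transcripts do not span them. The intron is number 3 in 2 transcripts and number 2 in 1, and it runs from 49925315 to 50042315. MIR188 starts 355 bases after the start of MIR532, the next hairpin MIR500A starts 5283 bases after it, and MIR502 at the far end starts 11450 bases after it. The 8 hairpins give 16 listed mature arms, of which 10 are the members and the other 6 are miR-188-3p, miR-501-5p, miR-500b-5p, miR-500b-3p, miR-660-3p and miR-502-5p.

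Mature sequences from RefSeq (GRCh38.p14) were matched for 15 of the 16 arms and 9 of the 10 members, all but miR-660-5p. They are written 5′ to 3′ with the seed in capitals. The 3p arms of MIR500A, MIR501, MIR500B and MIR502 come first, because they differ by so few bases that a read can be hard to assign.
miR-502-3p: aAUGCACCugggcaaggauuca
miR-501-3p: aAUGCACCcgggcaaggauucu
miR-500a-3p: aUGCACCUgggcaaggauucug
miR-500b-3p: gCACCCAGgcaaggauucug

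With miR-502-3p as the reference and positions counted from 1 at its 5′ end, miR-501-3p differs by U9C and A22U and keeps the same seed. MiR-500a-3p begins at base 2 of miR-502-3p and differs from it by A22U over 21 aligned bases, so that the 2 miRs share nearly all their sequence but not their seed, which is shifted by 1 base. MiR-500b-3p begins at base 4 and differs by U9C, G10A and A22U over 19 aligned bases.

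The 5p arms of the same hairpins and of MIR362 form a second group of related sequences, shown because MIR362 is the hairpin of this group in which the 5p strand is the abundant one.
miR-500a-5p: uAAUCCUUgcuaccugggugaga
miR-500b-5p: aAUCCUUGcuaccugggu
miR-501-5p: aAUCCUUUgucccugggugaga
miR-502-5p: aUCCUUGCuaucugggugcua
miR-362-5p: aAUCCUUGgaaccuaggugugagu

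MiR-500b-5p is contained in miR-500a-5p, from base 2, with 0 mismatches over its 18 bases. Against miR-500a-5p, with positions counted from 1 at its 5′ end, miR-501-5p differs by G9U, C10G and A12C. MiR-502-5p differs by C13U, A21C and G22U, and miR-362-5p by C10G, U11A, G16A and A21U. MiR-362-5p and miR-500b-5p share the seed AUCCUUG.

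The remaining members come from the 5′ end of the cluster or are the rare strand of MIR362, and their seeds are shared by no other cluster arm with a sequence.
miR-532-5p: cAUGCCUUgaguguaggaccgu
miR-532-3p: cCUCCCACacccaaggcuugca
miR-188-5p: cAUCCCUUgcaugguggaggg
miR-362-3p: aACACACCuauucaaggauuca

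Outside the cluster, miR-6866-3p shares the seed of miR-188-5p and miR-329-3p that of miR-362-3p. MiR-6866-3p had 0 counts in all 6 libraries together and miR-329-3p 2. Among miRs with a RefSeq sequence, the table thus held almost no reads of others with the seeds of these members. RefSeq held 319 of the 360 tested miRs, and the seeds of the rest were not compared.

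The libraries held from 398721 to 611745 counts of mature miRs. Values below are counts on library totals scaled by TMM, expressed per 1000000 (CPM), and a floor of 3 counts corresponds to between 4.90 and 7.52 per 1000000 counts of a library. A floor or an interval on a share reflects the error of counting alone, as amplified reads are not separate molecules. Pairs of RPL24 KD libraries differed by a chi-square per degree of freedom of 2.18 to 2.50 and pairs of NC libraries by 9.72 to 17.4, more than sampling noise. Each library was used as its own replicate, although this does not show that they came from separate cultures. The NC libraries differed more among themselves, and the fit did not model the spread of each group separately. In each group 1 column of the count table has a number that is in no label, and that library is called unnumbered. Of 5 miRs abundant in HEK293T (the HOX-linked miR-10a-5p, miR-10b-5p and miR-196b-5p, and miR-17-5p and miR-92a-3p), every library held at least 2096 counts each. Of 8 miRs known from other cell types, 5 had at most 3 counts in every library, and miR-223-3p and miR-205-5p were at 0 in all. The others exceeded 3 counts in at least 1 library: miR-124-3p had 0 to 8 counts, miR-133a-3p 2 to 7 and miR-451a 0 to 4. The summed level of the 8 ranged over 7.30 to 9.99 CPM in the RPL24 KD group and over 15.7 to 52.4 CPM in the NC group, and its part in the members' values was not tested. RPL24 mRNA is not measured in small RNA libraries.

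The members together made up a small and steady part of the libraries. Their share of all counts was 0.441% ± 0.0109 (SD, n = 3) in the RPL24 KD libraries and 0.437% ± 0.00869 (SD, n = 3) in the NC libraries. In CPM their sum was 4509, 4360 and 4585 in RPL24 KD libraries 1, 2 and unnumbered, and 4377, 4249 and 4271 in the corresponding NC libraries. The groups overlapped, since the lowest RPL24 KD library lay under the highest NC library. The log2 ratio of the group means was 0.061 with TMM scaling and 0.013 with total counts.

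MiR-532-5p, from the first hairpin, dominated the counts of the cluster. It gave between 59.6% and 66.0% of the members' counts and ranked number 49 by level among the 360 miRs with enough counts to be tested in edgeR. Over all 6 libraries its mean of 2780 CPM was 5.81 times that of the next member, miR-500a-3p, with 478 CPM. MiR-501-3p followed with 320 CPM, miR-660-5p with 267, miR-362-5p with 220 and miR-502-3p with 186. The ranges over libraries of neighbours in this run from miR-501-3p to miR-502-3p overlapped between libraries. Read within a library, miR-362-5p lay above miR-502-3p in 6 of 6, while the other neighbours of this run kept their order in 5 of 6. MiR-532-3p with 63.2 CPM and miR-500a-5p with 53.4 also overlapped and were in this order in 4 of 6 libraries. MiR-188-5p had 21.4 CPM, and miR-362-3p, with at most 2 counts in any library, lay under the floor. All members with a sequence are 21 to 24 bases long and each read covers 1 miR, so these levels were not divided by length. How efficiently each sequence entered the libraries was not measured, so ratios between miRs compare counts and not amounts in the cell.

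**Figure D1:**
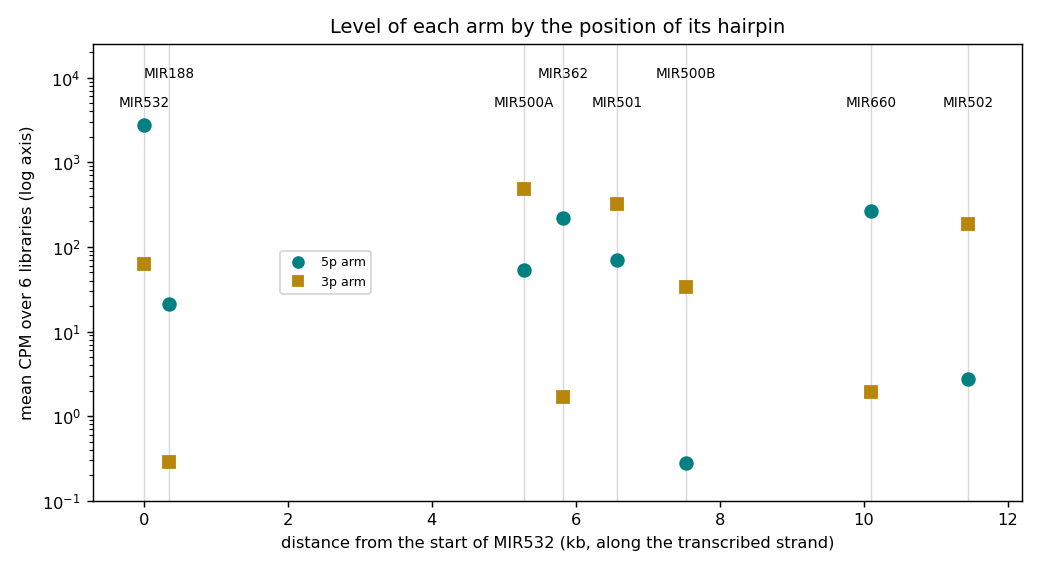
Mean level of each of the 16 arms over the 6 libraries (CPM, log axis) against the distance of its hairpin from the start of MIR532 (kb); circles are 5p arms and squares 3p arms. MiR-532-5p at the left end is highest at 2780 CPM, while miR-188-5p, 355 bases further along, had 21.4 CPM.

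Hairpins that lie side by side thus differed widely in the counts assigned to them. MiR-188-5p is encoded next to miR-532-5p and was the lowest member above the floor. Within the middle group, miR-500b-3p had 33.3 CPM over the 6 libraries, although its hairpin lies between those of miR-501-3p and miR-660-5p, which had 320 and 267 CPM. That level may depend on how reads were assigned, since 18 of the 19 aligned bases of miR-500b-3p match miR-501-3p.

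The hairpins also differed in which strand was found, and the map of levels by position shows the strands crossing from one hairpin to the next. In MIR532 the 5p strand made up 98.0% ± 0.182 (SD, n = 3) of the counts of both arms in the RPL24 KD group and 97.5% ± 0.588 (SD, n = 3) in the NC group. MIR188, MIR362 and MIR660 were likewise read mostly from the 5p strand, with 65 of 66, 673 of 678 and 818 of 824 counts over the 6 libraries. The 4 hairpins with near-identical 3p arms went the other way. The 5p strand took 10.2% ± 1.90 (SD, n = 3) of MIR500A counts with RPL24 depleted and 9.94% ± 1.21 (SD, n = 3) without, and 18.4% ± 2.80 (SD, n = 3) against 17.6% ± 1.92 (SD, n = 3) for MIR501. In MIR502 it had 8 of 578 counts and in MIR500B 1 of 104. Both miR-500b-5p and miR-500a-5p reads could have been counted under either name. The arms of a hairpin are different sequences whose capture was not compared, so these shares describe counts.

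Strand use was compared between the groups where both arms passed the filter, which was so for 3 of these hairpins among 74 in the table. The log2 ratio of 5p to 3p counts in MIR532 was 5.48, 5.70 and 5.72 in RPL24 KD libraries 1, 2 and unnumbered and 5.57, 5.43 and 4.94 in the corresponding NC libraries. The unnumbered NC library was lowest and the groups overlapped. The difference of the means was 0.32 (exact permutation test, two-sided p = 0.2), and 0.13 without the unnumbered NC library. For MIR500A the difference was 0.029 (exact permutation test, two-sided p = 0.9), and for MIR501 it was 0.080 (exact permutation test, two-sided p = 0.7). Neither sign was stable, since leaving out 1 library gave values from -0.091 (without the unnumbered RPL24 KD library) to 0.21 (without RPL24 KD library 1) for MIR500A and from -0.071 (without RPL24 KD library 2) to 0.17 (without the unnumbered NC library) for MIR501. With 3 libraries against 3 the smallest p this test can give is 0.1, and adjusted over the 74 hairpins (Benjamini-Hochberg) the exact p-values were 0.86, 0.994 and 0.909 in the same order. The groups did not overlap in 0 of these 3 hairpins, against 8.11% of all 74.

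The main question was whether depletion of RPL24 changed the members. The 9 members that passed the filter were tested in the quasi-likelihood fit of edgeR over all 360 miRs. None was differentially expressed (DE): 0 of 9 had an adjusted p under 0.05, against 5.00% of all tested miRs (3.33% higher and 1.67% lower in RPL24 KD), and 0 of 9 had an unadjusted p under 0.05, against 23.6%. DESeq2 and limma voom also called 0 of 9. The log2 fold changes of RPL24 KD over NC lay between -0.21 and 0.13 with a median of -0.083, where the median of all tested miRs was -0.0084. They were below 0 for 6 members and above 0 for 3, against 52.8% below 0 and 47.2% above 0 of all tested miRs. With total counts in place of TMM, which moves the median of all tested miRs to -0.058, 7 were below 0 and 2 above. A p over the threshold does not show that the levels are equal, so the intervals are given with the values.

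MiR-532-5p was the member measured most precisely, with from 1081 to 1659 counts per library. It had 2929, 2753 and 3026 CPM in RPL24 KD libraries 1, 2 and unnumbered, and 2732, 2695 and 2545 CPM in the corresponding NC libraries. On this TMM scale each RPL24 KD library lay above each NC library by a narrow margin, whereas per 1000000 total counts RPL24 KD library 2, at 2712, lay below NC library 1, at 2771, and the groups overlapped. The log2 fold change was 0.13 (standard error 0.0699, 95% interval -0.024 to 0.28, adjusted p = 0.317, edgeR), a level 9.14% higher. The log2 fold change was 0.078 with total counts, 0.079 without the unnumbered NC library and 0.052 on the numbered libraries alone. With TMM it was the 1 member of 9 whose groups did not overlap, against 27.5% of all tested miRs. Its partner strand miR-532-3p had 65.7, 53.1 and 57.5 CPM in the RPL24 KD libraries in the same order, and 57.6, 62.3 and 83.2 CPM in NC. The unnumbered NC library was high and the others were mixed. Its log2 fold change was -0.21 (95% interval -0.67 to 0.25, adjusted p = 0.628, edgeR), with from 23 to 44 counts per library behind it, and -0.036 without the unnumbered NC library. The 2 strands of MIR532 therefore had estimates of opposite sign, and each interval held 0.

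**Figure D2:**
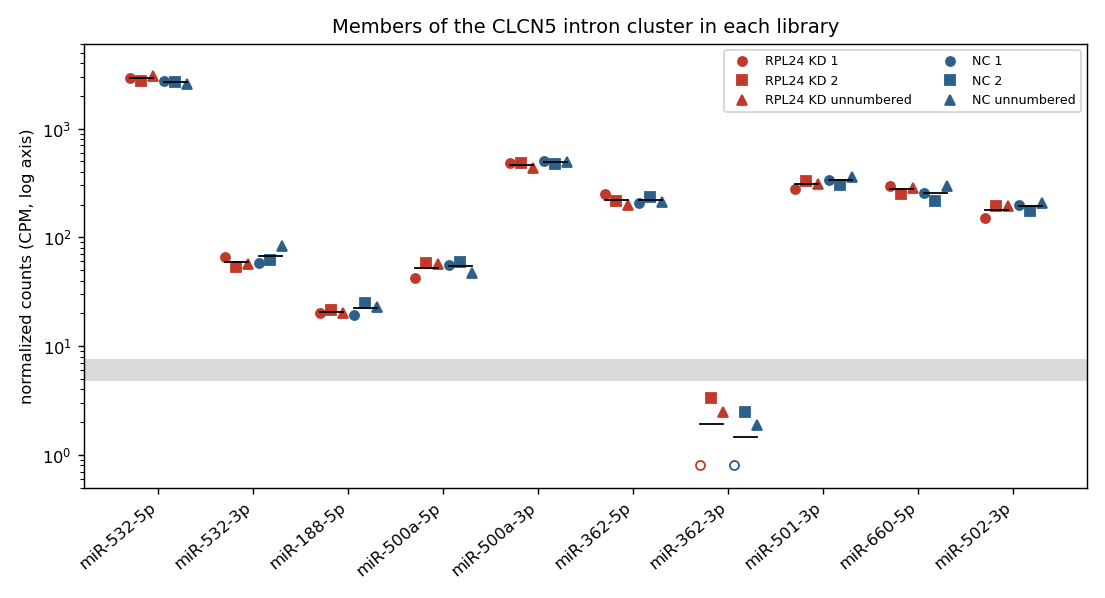
Normalized counts of the 10 members (CPM, log axis) in each library, in the order of their hairpins, with RPL24 KD in red and NC in blue, a marker for each library number, black bars at the group means and a grey band at the floor of 3 counts (4.90 to 7.52 CPM). Open markers stand for 0 counts. On this TMM scale the groups overlap in every member but miR-532-5p, and miR-362-3p lies under the floor.

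The 3 abundant members with near-identical 3p arms had similar estimates, all slightly below 0. MiR-500a-3p had 480, 478 and 435 CPM in the RPL24 KD libraries 1, 2 and unnumbered, and 508, 476 and 494 CPM in NC. Library 2 of NC lay within the RPL24 KD range. Its log2 fold change was -0.083 (95% interval -0.29 to 0.12, adjusted p = 0.664, edgeR). MiR-501-3p had 277, 330 and 312 CPM after RPL24 KD and 340, 302 and 361 CPM in NC, with a log2 fold change of -0.13 (95% interval -0.38 to 0.12, adjusted p = 0.559, edgeR). MiR-502-3p had 151, 194 and 192 CPM after RPL24 KD and 199, 175 and 206 CPM in NC, with a log2 fold change of -0.12 (95% interval -0.42 to 0.18, adjusted p = 0.664, edgeR). In both, RPL24 KD library 1 was the lowest of all 6, and without it the log2 fold changes were -0.065 for miR-501-3p and -0.013 for miR-502-3p.

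Because the aligner could have divided reads among these sequences, miR-500a-3p, miR-500b-3p, miR-501-3p and miR-502-3p were also summed to 1 feature and the whole table was fitted again. The sum was 942, 1052 and 974 CPM in RPL24 KD libraries 1, 2 and unnumbered and 1100.5, 972 and 1068 CPM in the NC libraries, so the groups overlapped. Its log2 fold change was -0.083 (standard error 0.0872, 95% interval -0.27 to 0.10, adjusted p = 0.633, edgeR). For miR-500a-3p alone it was -0.083 in the main fit, whose TMM scaling differed. On total counts the values were -0.15 for the sum and -0.13 for miR-500a-3p. The sum of miR-500a-5p and miR-500b-5p had a log2 fold change of -0.0083 (95% interval -0.50 to 0.48, adjusted p = 0.977, edgeR). Neither sum was DE.

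MiR-660-5p and miR-362-5p, the abundant strands of their hairpins, had estimates slightly above 0, although that of miR-362-5p was -0.011 with total counts. MiR-660-5p had 294, 251 and 285 CPM in RPL24 KD libraries 1, 2 and unnumbered, and 258, 214 and 299 CPM in NC. The unnumbered NC library was the highest of the 6 and NC library 2 the lowest, so the RPL24 KD libraries lay inside the NC range. Its log2 fold change was 0.084 (95% interval -0.20 to 0.37, adjusted p = 0.757, edgeR). MiR-362-5p had 250, 217 and 197 CPM after RPL24 KD and 208, 237 and 212 CPM in NC, with a log2 fold change of 0.037 (95% interval -0.24 to 0.31, adjusted p = 0.90, edgeR). Here the RPL24 KD libraries were both the highest and the lowest, and the NC libraries lay between them.

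The members with few reads had the widest intervals. MiR-500a-5p had 41.9, 58.1 and 57.5 CPM in the RPL24 KD libraries and 55.8, 59.8 and 47.3 CPM in NC, with a log2 fold change of -0.046 (95% interval -0.53 to 0.44, adjusted p = 0.93, edgeR). MiR-188-5p had from 8 to 13 counts per library, 20.1, 21.6 and 20.0 CPM after RPL24 KD and 19.2, 24.9 and 22.7 CPM in NC. Its log2 fold change of -0.090 had an interval from -0.80 to 0.62 (adjusted p = 0.90, edgeR), which as a change in level runs from -42.5% to 53.6%. MiR-362-3p did not pass the filter, with 0, 2 and 1 counts in RPL24 KD and 0, 1 and 1 in NC, and no fold change is given for a miR under the floor in both groups.

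**Figure D3:**
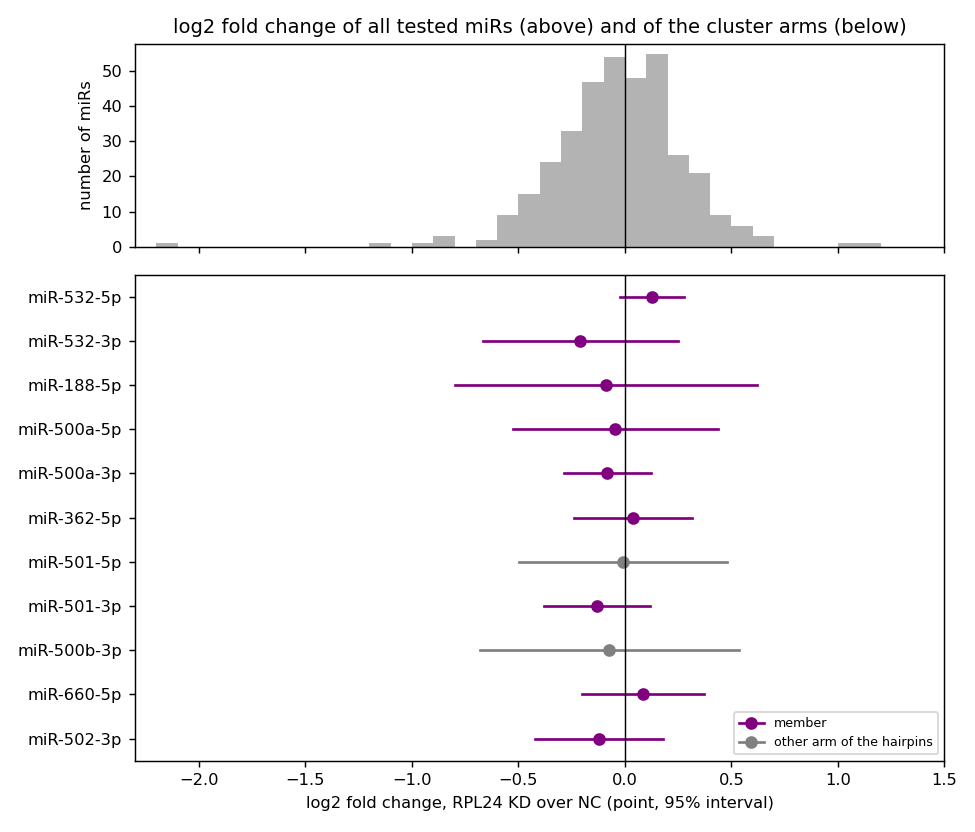
Log2 fold changes of RPL24 KD over NC: above, the number of miRs per bin of 0.1 for all 360 tested miRs, and below, the 9 tested members (purple) and the 2 other tested arms of the hairpins (grey) as points with 95% intervals. All 11 intervals hold 0, and the narrowest is that of miR-532-5p.

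Of the 6 arms of these hairpins that are not members, miR-501-5p and miR-500b-3p passed the filter and 0 of these 2 were DE. MiR-501-5p had 56.5, 91.3 and 62.5 CPM after RPL24 KD and 62.8, 64.8 and 87.0 CPM in NC, with a log2 fold change of -0.0091 (95% interval -0.50 to 0.48, adjusted p = 0.991, edgeR). MiR-500b-3p had 29.2, 38.2 and 30.0 CPM after RPL24 KD and 31.4, 27.4 and 43.5 CPM in NC, with a log2 fold change of -0.073 (95% interval -0.68 to 0.54, adjusted p = 0.907, edgeR). The groups overlapped in both. The remaining 4 arms were nearly unread, with totals over the 6 libraries of 1 count for miR-188-3p, 1 for miR-500b-5p, 6 for miR-660-3p and 8 for miR-502-5p.

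The balance between miR-532-5p and the other members was also compared. The share of miR-532-5p in the members' counts was 65.0%, 63.2% and 66.0% in RPL24 KD libraries 1, 2 and unnumbered and 62.4%, 63.4% and 59.6% in the NC libraries, and the groups overlapped. The other members together came to 1582 ± 23.7 CPM (SD, n = 3) with RPL24 depleted and 1642 ± 86.6 CPM (SD, n = 3) without.

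The size of change that this edgeR fit could call bears on this result. The smallest absolute log2 fold change among its 18 DE miRs was 0.26, a value that belongs to this fit and can differ under other settings. The intervals of all 9 tested members reached at least that far on one side or both. A change of that size in at least one direction is thus not shown to be absent in any of them. For miR-532-5p a rise by 0.26 lay inside the interval and a fall by 0.26 outside it. Its standard error of 0.0699 was close to the 0.0707 of miR-19a-3p, the DE miR with that smallest change (named after its values were seen), and the other 8 tested members had standard errors from 0.0951 to 0.330. Changes as large as the largest among the DE miRs, 1.18 on the log2 scale in miR-181c-3p, lay outside all 9 intervals. The next largest was 0.659 in miR-92a-1-5p (both also named after their values were seen). A fall of that size lay inside the intervals of miR-188-5p and miR-532-3p.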

How the data were processed

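Small RNA libraries of HEK293T cells were 3 RPL24 KD and 3 NC. Libraries 1 and 2 were grouped by their treatment labels, and the unnumbered library of each group by the KD or NC in its column name. The authors used Flexbar to trim and filter reads and miRExpress to align them against miRBase, and deposited a raw count for each mature miR and library. Their processing notes also name FastQC 0.11.9 and DESeq2. The treatment of reads matching more than 1 miR is not given in the sources used here. Columns of libraries 1 and 2 carry the label's number and the third of each group does not.

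Counts were fitted with edgeR 4.0.16 (R 4.3.3, quasi-likelihood, TMM, filterByExpr with minimum count 10, no replicate block, Benjamini-Hochberg over all 360 tested miRs, threshold 0.05 on the adjusted p). Alternatives were limma 3.58.1 (voom), DESeq2 1.42.0, other scalings and filters, leaving out each library, a replicate block, summed near-identical arms and, chosen after seeing the data, the numbered libraries with no block and edgeR's legacy fit. Standard errors and 95% intervals follow from the F statistic. The fit was tested on simulated data with larger changes than those of the members and equal dispersion in both groups. Its recovery of small changes was not tested. Named miRs were the members, the other arms of their hairpins, miRs with a shared seed and the 3 miRs nearest to the summed profile. Members and lists were chosen with earlier results of these data known. Sequences came from RefSeq and positions from GENCODE 29; 7 of 7 hairpins in both had the same coordinates.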

Additional observations from a re-analysis of the deposited data

How the results depend on the processing

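The number of DE members was 0 under all 18 alternatives, including each fit that left out a library and the replicate block on the 4 numbered libraries. Only 5 members entered the fit with a mean of at least 100 counts and that with arms summed. The correlation of deviations of same-numbered libraries was -0.022 over 360 miRs, which gave no sign that the numbers pair libraries. It compares only libraries 1 and 2 and includes miRs with few counts, so it cannot exclude pairing. The number of DE miRs in the whole table, 18, came to 28 on total counts, 34 with robust edgeR, 31 with no filter and 57 under the replicate block, which uses the 4 numbered libraries alone. Those 4 without the block gave 27. Leaving out 1 library gave from 0 (RPL24 KD library 1) to 36 (the unnumbered NC library), with 8 when RPL24 KD library 2 was left out. Of 187 values of named arms under alternatives, 170 kept their sign and side of the threshold and 17 changed sign, none of them called. The cause was not tested.

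With the replicate block the log2 fold change of miR-501-5p was 0.17 and that of miR-500b-3p 0.16, and with the numbered libraries and no block (added after seeing the data) 0.22 and 0.17. MiR-501-5p was 0.0022 without a filter and 0.012 with arms summed, and miR-362-5p was -0.011 with total counts. Without one library, miR-500a-5p ranged from -0.15 to 0.095, miR-362-5p from -0.064 to 0.095, miR-501-5p from -0.28 to 0.15, miR-500b-3p from -0.23 to 0.13, miR-660-5p from -0.014 to 0.18 and the summed 500a and 500b 5p arms from -0.14 to 0.11. The log2 ratio of the cluster total moved from 0.061 to 0.013 with total counts. Without one library the log2 fold change of miR-532-5p was between 0.079, without the unnumbered NC library, and 0.16. Without one library, miR-532-3p ranged from -0.34 (NC library 1 left out) to -0.036 (unnumbered NC), miR-502-3p from -0.20 (RPL24 KD library 2) to -0.013 (RPL24 KD library 1), miR-501-3p from -0.20 to -0.065 (the same 2 libraries), miR-188-5p from -0.20 (NC library 1) to -0.017 (NC library 2), miR-500a-3p from -0.11 to -0.049 and the summed 3p arms from -0.17 (NC library 2) to -0.072. MiR-532-5p was 0.078 with total counts and 0.055 with the replicate block.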

Other observations

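Of the tested miRs that RefSeq places on the X chromosome outside the cluster, 29 in number, 2 were DE (5.00% of all 360 tested miRs were). They were miR-424-3p, at 0.47 on the log2 scale with an adjusted p of 0.0132 in edgeR, and miR-504-5p, at -0.47 with an adjusted p of 0.0358. The log2 fold changes of the 29 had a median of 0.0026, with 14 below 0 and 15 above 0. RefSeq gave a position for 319 of the 360 tested miRs. The others were not placed, so the list can lack tested miRs of the X chromosome. Whether the cluster differs from these miRs was not tested.

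Over the 6 libraries the profiles nearest to the summed level of the members were those of let-7f-5p, miR-340-5p and miR-181b-5p. The sum itself ranged only from 4249 to 4585 CPM, so any steady miR scores as near. The measure therefore cannot show that these miRs vary together with the cluster. The root mean square difference of the centred log2 CPM was 0.0323, 0.0345 and 0.0380, where the median over the 349 miRs compared was 0.198. All 3 were more abundant than most members, with means of 14362, 4533 and 1151 CPM, and 0 of the 3 were DE.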
